A study of Mus musculus with 4 samples.

Results

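The 40 genes described here mark leukocytes, the white blood cells, and macrophages, their tissue phagocytes. They were chosen by symbol as a set of leukocyte and macrophage identity genes, with earlier results of these data known. They were measured in cultured mouse pancreatic fibroblasts. Each of the 40 symbols had 1 row among the 38921 gene intervals of the deposited tables. RNA of pancreatic fibroblasts from wild type mice (2 libraries) and from KPC mice (2 libraries) was sequenced after poly-A selection. KPC is the usual name of a pancreatic cancer model in which a Cre recombinase driven by Pdx1, a gene of pancreatic epithelium, switches on engineered cancer alleles; the labels give the name alone. All animals were of mixed strain, and no age is given. All 4 cultures were isolated by a gravity separation method and grown in DMEM with 10% fetal bovine serum at 7% CO2. The labels call the libraries biological replicates without naming animals or cultures. Each p-value thus sets the genotype difference against the spread between these libraries, estimated in part from other genes.

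Macrophages share a set of genes with all other blood cells and add genes of their own. The shared part includes the surface phosphatase CD45, the actin regulators of migrating blood cells and the signalling proteins downstream of immune receptors. The macrophage part includes scavenger receptors, lectins, sensors of microbes, the oxidase that makes superoxide in phagosomes, and lysosomal proteins, and much of it depends on the transcription factor PU.1, the product of Spi1. In the pancreas, macrophages lie among the fibroblasts of the stroma, and in pancreatic tumours they are among the most numerous immune cells.

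Counts per library summed to between 22302141 (wild type 2) and 68312367 (KPC 2), and 23046 rows were tested, all 40 genes among them. Levels are CPM, the counts scaled to a common library total, after scaling by trimmed mean of M-values (TMM). Both genotypes had high levels of fibroblast markers, with summed CPM of 10 markers from 11109 to 13402 and Col1a1 between 4088 and 5245 CPM. Other cell types differed between single libraries: 8 endothelial markers summed to 701 CPM in wild type 1 and to between 17.9 and 37.6 CPM in the other libraries, and 8 epithelial markers summed to 29.7 and 422 CPM in wild type 1 and 2 and to 1170.4 and 430.5 CPM in KPC 1 and 2. In bulk RNA of a culture, more cells of a type and more RNA per cell cannot be told apart.

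Of the 40 genes, 37 had both KPC libraries above both wild type libraries and 0 had both below. Among all tested rows, 20.6% were higher in both KPC libraries and 20.5% lower in both. Since the 40 genes were chosen with earlier results of these data known, this comparison is a description and not a test. The median log2 fold change of the 40 genes was 2.50, and that of all tested rows was -0.01. Summed over the 40 genes, the level was 347 and 580.3 CPM in wild type 1 and 2 and 1653 and 2724 CPM in KPC 1 and 2, and Lyz2 alone made up 1.8%, 22.7%, 38.1% and 52.0% of these sums. The median gene stood at 1.10, 4.11, 9.92 and 21.8 CPM in the same libraries. Wild type 2 thus lay between wild type 1 and the KPC libraries.

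By edgeR's quasi-likelihood test with Benjamini-Hochberg adjustment, 0 of the 40 genes passed at an adjusted p of 0.05, where 0.0% of all tested rows were called in either direction. Their adjusted p ran from 0.211 to 0.993. At an unadjusted p under 0.05, 32 of the 40 were higher in KPC and 0 lower, against 4.73% and 3.94% of all tested rows. DESeq2 called 23 of the 40 higher at an adjusted p under 0.05, where it called 1.44% of all tested rows higher. limma voom called 0, with 31 higher at an unadjusted p under 0.05, against 5.1% of all tested rows. Without KPC replicate 2 the median log2 fold change of the 40 genes was 1.94, and without wild type replicate 2 it was 3.48. Both fits assume that the lone library of its group varies like the other group.

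**Figure D1:**
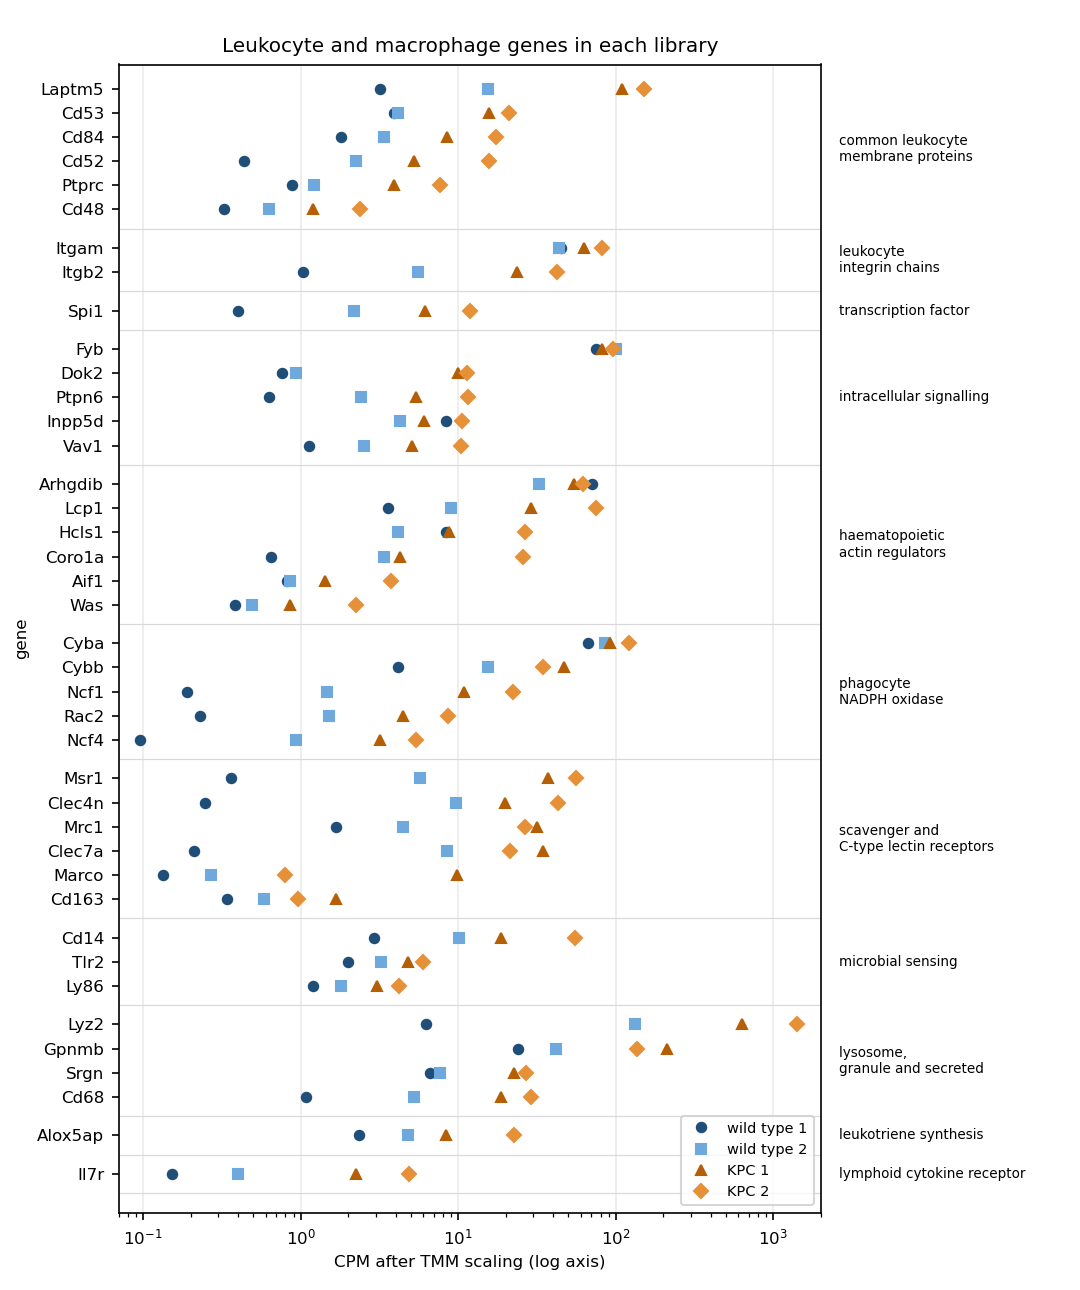
Level of each of the 40 genes in each library, as CPM after TMM scaling on a log axis, with genes grouped by role. In all rows except those of Fyb, Inpp5d and Arhgdib both KPC points lie to the right of both wild type points, and wild type 2 lies to the right of wild type 1 in 36 rows.

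All 6 membrane proteins common to leukocytes were higher in both KPC libraries, with log2 fold changes from 1.97 to 3.81. Laptm5, a lysosomal membrane protein of blood cells, had the highest levels of the 6 in KPC, in CPM and per kilobase of GENCODE M21 exon, at 3.18 and 15.5 CPM in the wild type cultures against 109 and 151 CPM for KPC. Ptprc, which encodes CD45, measured 0.875 and 1.21 CPM in the wild type cultures against 3.89 and 7.65 CPM for KPC. The tetraspanin gene Cd53 stood at 3.88 and 4.11 CPM against 15.7 and 21.0 CPM. The wild type libraries were close to each other for Cd53 and Ptprc and far apart for Laptm5. Cd52, a small glycoprotein of lymphocytes and monocytes, stood at 0.438 and 2.24 CPM against 5.24 and 15.6 CPM. The signalling receptors Cd84 and Cd48 belong to the SLAM family of leukocyte adhesion receptors. Cd84 stood at 1.79 and 3.35 CPM against 8.48 and 17.2 CPM, and Cd48 at 0.323 and 0.626 CPM against 1.19 and 2.37 CPM. The log2 fold changes were 2.20 ± 0.24 (SE) for Cd53, 2.49 ± 0.46 for Ptprc and 3.81 ± 0.82 for Laptm5, and none of the 6 passed the edgeR test (adjusted p from 0.211 to 0.537), while all 6 had an unadjusted p under 0.05 and DESeq2 called 5.

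The integrin chains Itgam and Itgb2 pair to form Mac-1, the complement receptor of myeloid cells, but the difference between genotypes was larger in the counts of Itgb2 than in those of Itgam. Itgb2 measured 1.03 and 5.59 CPM in the wild type cultures against 23.6 and 42.6 CPM for KPC, a log2 fold change of 3.37 ± 0.87 (SE). Itgam measured 44.99 and 43.6 CPM in the wild type cultures against 63.0 and 81.2 CPM for KPC, a log2 fold change of 0.70 ± 0.20 (SE). Neither passed the edgeR test (adjusted p = 0.459 and 0.50). The bases covered by reads separated the Itgam libraries more than the counts did: 2033 and 2178 bases were covered in wild type, and 7155 and 7466 in KPC, of an interval of 65520 bases. In wild type 1 that is 1.16 counts per covered base for Itgam and 0.0459 for Itgb2, a contrast that also reflects their 2365 and 54 counts. The covered bases of Itgam equal 40.47% and 43.35% of its GENCODE M21 exon length in wild type and 142.4% and 148.6% in KPC. The wild type Itgam counts thus lay on a smaller part of the interval than the KPC counts. GENCODE M21 places a processed pseudogene, Gm45700, inside the Itgam interval (chromosome 7, 128126835 to 128127181, mm10). It also places there a protein-coding gene on the same strand, Gm49368 (128062683 to 128128160). Itgam itself ends at 128118491 in GENCODE M21, and the interval at 128128160. Gm45700 and Gm49368 had no row of their own, and their part in the counts and covered bases was not tested.

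Spi1 (chromosome 2, 91082391 to 91115756, mm10) measured 0.399 and 2.19 CPM in the wild type cultures against 6.17 and 11.8 CPM for KPC, a log2 fold change of 2.86 ± 0.88 (SE; edgeR adjusted p = 0.529). PU.1 binds purine-rich sites around a GGAA core. Because these genes were high in the same libraries, the RefSeq promoter windows (250 bases before to 50 after the start, GRCm38.p6) were searched on both strands for GAGGAAG and AGGAAGT, which overlap by 6 letters and are often read from the same site. Of the 40 genes, 30 had an entry, with 37 windows in all. GAGGAAG was in 7 of the 37 windows (18.9%) and in 13.6% of all 32851 windows, and AGGAAGT was in 12 of the 37 (32.4%) and in 9.35% of all windows. Either was in 40.5% of the members' windows and in 19.1% of all. The windows with either motif belonged to 14 of the 30 genes. These included Arhgdib and Inpp5d, whose libraries of the 2 genotypes overlapped, but not Fyb, whose libraries also overlapped. Matches were thus not limited to genes that were higher in both KPC libraries. A match is a description of the letters and shows no binding.

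4 windows are printed 5′ to 3′ on the strand of the gene, with matches to either motif in capitals. Itgam and Cybb were chosen as textbook targets of PU.1 and Cyba as a gene used in most cell types; Cd53 was added after its match was seen. The windows lie at chr7:128062390-128062689 (plus strand) for Itgam, chrX:9469275-9469574 (minus) for Cybb, chr8:122432891-122433190 (minus) for Cyba and chr3:106790100-106790399 (minus) for Cd53.
Itgam: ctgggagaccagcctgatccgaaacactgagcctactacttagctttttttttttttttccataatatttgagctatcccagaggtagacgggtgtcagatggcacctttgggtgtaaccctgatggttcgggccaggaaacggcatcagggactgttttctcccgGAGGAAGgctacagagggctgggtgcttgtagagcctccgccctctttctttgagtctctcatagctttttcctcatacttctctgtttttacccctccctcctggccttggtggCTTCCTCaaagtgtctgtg
Cybb: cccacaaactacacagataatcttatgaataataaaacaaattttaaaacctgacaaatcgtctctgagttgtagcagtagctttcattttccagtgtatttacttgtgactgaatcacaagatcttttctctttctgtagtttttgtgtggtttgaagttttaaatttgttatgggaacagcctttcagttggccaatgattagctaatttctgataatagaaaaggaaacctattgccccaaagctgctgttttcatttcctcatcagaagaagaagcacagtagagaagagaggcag
Cyba: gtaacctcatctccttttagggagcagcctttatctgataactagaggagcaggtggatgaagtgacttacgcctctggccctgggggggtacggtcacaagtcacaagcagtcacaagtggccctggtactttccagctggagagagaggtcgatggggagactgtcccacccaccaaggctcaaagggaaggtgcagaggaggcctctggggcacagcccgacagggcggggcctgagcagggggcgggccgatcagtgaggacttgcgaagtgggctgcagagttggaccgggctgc
Cd53: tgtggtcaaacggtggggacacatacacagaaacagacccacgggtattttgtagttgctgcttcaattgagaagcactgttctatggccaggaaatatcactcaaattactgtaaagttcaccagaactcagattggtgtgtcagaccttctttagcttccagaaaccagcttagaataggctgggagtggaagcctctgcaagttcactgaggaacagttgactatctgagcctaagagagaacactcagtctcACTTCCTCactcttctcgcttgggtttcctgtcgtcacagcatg
The Itgam window holds GAGGAAG once on each strand, and the Cd53 window holds 1 site that matches both motifs on the opposite strand. The Cybb and Cyba windows hold neither motif. Both windows do hold the shorter GGAA core, which was not counted. Cybb and Cyba are described next, with the complex they form.

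The phagocyte NADPH oxidase joins a membrane pair, Cybb (gp91phox) and Cyba (p22phox), to cytosolic subunits that include Ncf1 (p47phox), Ncf4 (p40phox) and the small GTPase Rac2. All 5 genes were higher in both KPC libraries, with a median log2 fold change of 3.002, and Cyba had the smallest fold change of the 5. Ncf1 measured 0.190 and 1.48 CPM in the wild type cultures against 10.9 and 22.4 CPM for KPC, Ncf4 at 0.0951 and 0.939 against 3.18 and 5.40 CPM, and Rac2 at 0.228 and 1.52 against 4.49 and 8.63 CPM. The wild type 1 values of Ncf1 and Ncf4 rest on 10 and 5 counts, with exact 95% Poisson intervals of 0.0912 to 0.350 and 0.0309 to 0.222 CPM that cover counting error only. In each of these subunits wild type 2 lay between wild type 1 and both KPC libraries, as it did for Cybb. Cybb measured 4.13 and 15.5 CPM in the wild type cultures against 46.8 and 34.5 CPM for KPC. Cyba measured 66.8 and 85.2 CPM in the wild type cultures against 92.1 and 121 CPM for KPC, a log2 fold change of 0.49 ± 0.23 (SE) beside 2.07 ± 0.66 for Cybb. p22phox also serves oxidases of cells other than phagocytes. The Ncf1 interval overlaps that of Gtf2ird2, on the other strand, which had 323 and 157 counts in the wild type pair and 908 and 1742 in the KPC pair, beside 10, 33, 639 and 1517 for Ncf1; with no strand stated, reads of the overlap cannot be told apart.

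Of 7 tested genes from a list of oxidase partners and homologues outside the 40, 2 were higher in both KPC libraries and 4 lower in both, and 0 passed the edgeR test (1 was lower at an unadjusted p under 0.05, Nox4, and DESeq2 called 1 lower). Rac1, the broadly used relative of Rac2, stood at 212 and 198 CPM against 177 and 169 CPM, and Cyb5r4, a cytochrome reductase, at 11.01 and 17.6 against 24.9 and 19.6 CPM. Nox4, the oxidase catalytic subunit of many stromal cells and named here after its values were seen, was lower in both KPC libraries, at 10.5 and 9.75 CPM against 5.15 and 4.72 CPM.

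The 6 scavenger and C-type lectin receptors, which bind modified lipoproteins, glycans and microbes, were all higher in both KPC libraries (median log2 fold change 2.998), yet they split by which KPC library was highest. Msr1, scavenger receptor A, measured 0.361 and 5.72 CPM in the wild type cultures against 37.0 and 55.5 CPM for KPC. Mrc1, the mannose receptor gene, stood at 1.67 and 4.43 CPM against 31.5 and 26.4 CPM. These were among the clear separations of the group: the lowest KPC value was several times the highest wild type value. Clec7a, which encodes the beta-glucan receptor dectin-1, stood at 0.209 and 8.45 CPM against 34.2 and 21.1 CPM, and Clec4n, which encodes dectin-2, at 0.247 and 9.66 against 19.7 and 43.0 CPM. For both lectins wild type 1 stood far below the other 3 libraries, and neither had an unadjusted edgeR p under 0.05. Marco, a scavenger receptor of macrophage subsets, stood at 0.133 and 0.268 CPM in wild type, at 9.83 CPM in KPC 1 (578 counts, exact 95% Poisson interval 9.04 to 10.7) and at 0.796 CPM in KPC 2 (54 counts, 0.598 to 1.04). Its log2 fold change of 4.82 ± 1.43 (SE) was the highest of the 40 and rests on KPC 1: without KPC replicate 1 it was 2.07. Cd163, the haemoglobin scavenger receptor, stood at 0.342 and 0.581 CPM against 1.68 and 0.958 CPM, on at most 99 counts a library.

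The 3 sensors of microbial products had a median log2 fold change of 1.30, with all 3 higher in both KPC libraries. Cd14, the co-receptor for lipopolysaccharide, measured 2.93 and 10.1 CPM in the wild type cultures against 18.7 and 55.2 CPM for KPC, a log2 fold change of 2.52 ± 0.81 (SE). The receptor gene Tlr2 stood at 2.00 and 3.22 CPM against 4.79 and 5.99 CPM, and Ly86, which encodes the MD-1 partner of the receptor RP105, at 1.20 and 1.79 against 3.06 and 4.23 CPM. All 3 genes had an unadjusted edgeR p under 0.05 and an adjusted p from 0.483 to 0.541. Among the lysosomal, granule and secreted products, Lyz2, the lysozyme of macrophages and neutrophils, had the highest level of the 40 genes in both KPC libraries per kilobase of GENCODE M21 exon as well as in CPM. The wild type libraries had 6.24 and 132 CPM and the KPC libraries 629 and 1416 CPM. Its neighbour and close relative Lyz1 stood at 2.05, 37.5, 179 and 393 CPM, and reads of the pair may have been split or counted for both. Cd68, a lysosomal glycoprotein used as a macrophage marker, stood at 1.08 and 5.23 CPM against 18.8 and 28.9 CPM. In each of these genes wild type 2 lay above wild type 1 and below both KPC libraries. Gpnmb, a transmembrane glycoprotein of lipid-laden macrophages, osteoclasts and pigment cells, stood at 24.0 and 42.0 CPM against 211 and 136 CPM. Srgn, the core protein of granule proteoglycans, stood at 6.58 and 7.69 CPM against 22.6 and 27.0 CPM, with a log2 fold change of 1.80 ± 0.21 (SE). None of the 4 lysosomal, granule and secreted genes of the 40 passed the edgeR test (adjusted p from 0.211 to 0.571), and DESeq2 called 3.

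Among the signalling genes, Dok2 (chromosome 14, 70766037 to 70778495, mm10), an adaptor that restrains kinase signals in myeloid and T cells, had the smallest p of the 40, with 0.761 and 0.939 CPM in the wild type cultures against 10.0 and 11.3 CPM for KPC. Its log2 fold change was 3.66 ± 0.28 (SE; edgeR unadjusted p = 6.31e-05, adjusted p = 0.211). Both wild type libraries of Dok2 were close to each other, as were both KPC libraries. Ptpn6, the phosphatase SHP-1, stood at 0.628 and 2.42 CPM against 5.42 and 11.5 CPM, and the exchange factor gene Vav1 at 1.12 and 2.50 against 5.05 and 10.4 CPM. Both genes had wild type 1 lowest and KPC 2 highest. Alox5ap, the helper of leukotriene synthesis, stood at 2.36 and 4.83 CPM against 8.36 and 22.5 CPM. Il7r, the receptor for interleukin 7 known from lymphocytes, stood at 0.152 and 0.403 CPM against 2.24 and 4.85 CPM. It followed the same direction as the myeloid genes in both KPC libraries; lymphocyte markers are given with the other lists.

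Of the 6 actin regulators of blood cells, 5 were higher in both KPC libraries, and this group held the 2 genes with the highest ratio of KPC 2 to KPC 1 among the 40, Coro1a and Hcls1 (the gap of Marco, in the other direction, was wider). Coro1a, coronin 1A, measured 0.647 and 3.35 CPM in the wild type cultures against 4.27 and 25.8 CPM for KPC, a ratio of 6.04 between the KPC libraries, beside 3.04 for Hcls1. Lcp1, L-plastin, stood at 3.60 and 9.03 CPM against 28.9 and 74.8 CPM. Hcls1, a cortactin relative, stood at 8.33 and 4.11 CPM against 8.70 and 26.5 CPM. Hcls1 in KPC 1 was close to wild type 1, and with upper quartile factors the 2 groups overlapped. Aif1, which encodes the macrophage protein Iba1, stood at 0.818 and 0.8497 CPM against 1.43 and 3.72 CPM, and Was, the Wiskott-Aldrich syndrome protein gene, at 0.380 and 0.492 against 0.8499 and 2.26 CPM. None of the group passed the edgeR test (adjusted p from 0.395 to 0.937).

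**Figure D2:**
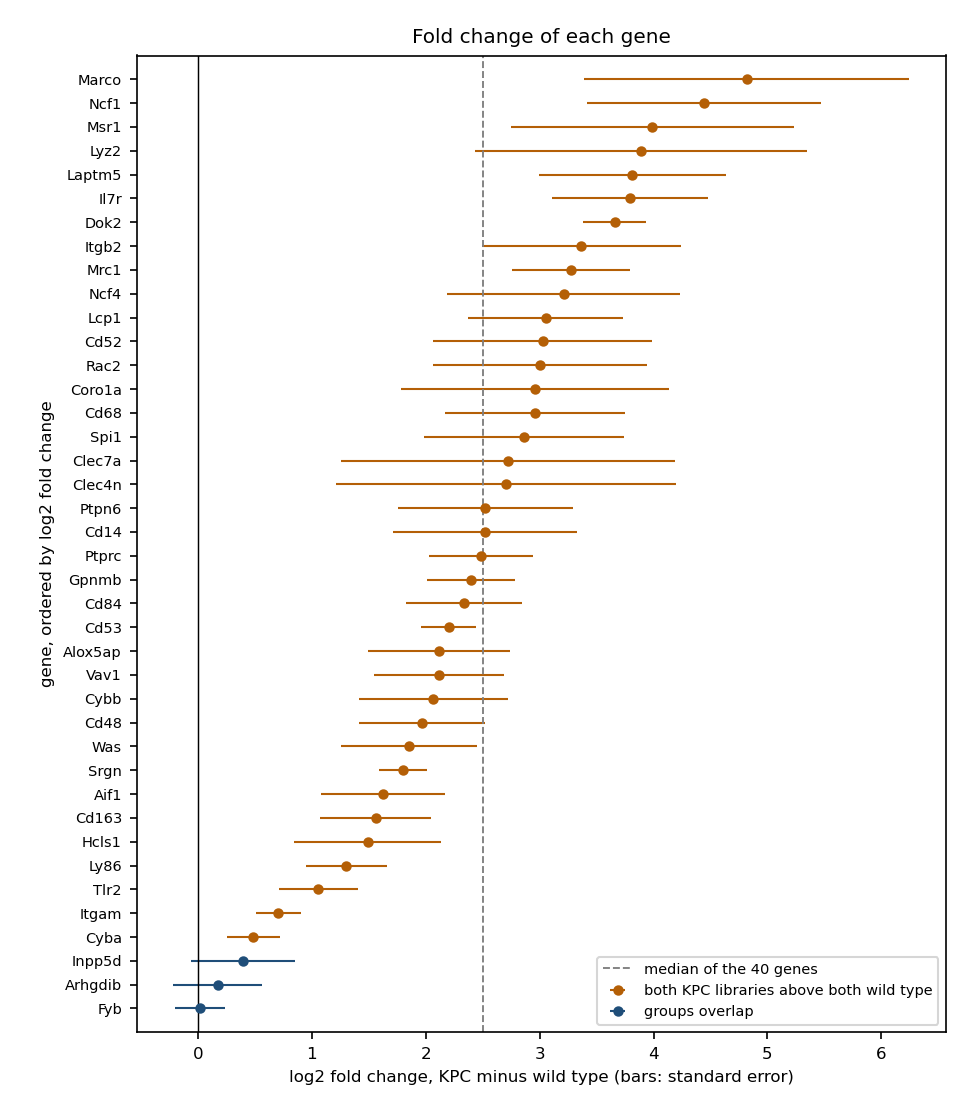
Log2 fold change of KPC minus wild type for each of the 40 genes from the edgeR fit, with standard errors as bars; the dashed line is the median of the 40 genes. Fyb, Arhgdib and Inpp5d, whose groups overlap, lie at 0.02, 0.17 and 0.39, and Cyba and Itgam are the other genes under 1.

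3 genes were apart from the myeloid trend, in that the libraries of the 2 genotypes overlapped: Fyb, Arhgdib and Inpp5d. Arhgdib (chromosome 6, 136923524 to 136941899, mm10), an inhibitor of small GTPases in blood cells that is also expressed in endothelium, measured 70.2 and 32.7 CPM in the wild type cultures against 54.4 and 61.8 CPM for KPC. Inpp5d (chromosome 1, 87620313 to 87720507), the lipid phosphatase SHIP1, stood at 8.37 and 4.25 CPM against 6.07 and 10.6 CPM. In both genes wild type 1 lay above KPC 1 and wild type 2 was the lowest library. Arhgdib, Inpp5d, Hcls1 and Itgam were the 4 genes of the 40 that were not higher in wild type 2 than in wild type 1, and endothelial markers were high in wild type 1, at 701 CPM summed over 8 genes against at most 37.6 CPM elsewhere, with Emcn at 248 CPM in wild type 1 and between 1.04 and 4.20 CPM in the other libraries. Their part in the values of these genes was not tested. Without wild type replicate 1, the log2 fold changes were 0.83 for Arhgdib and 0.97 for Inpp5d, and both KPC libraries then lay above wild type 2; without wild type replicate 2 they were -0.27 and -0.004. Just inside the trend were Cyba at 0.49 ± 0.23 (SE) and Itgam at 0.70 ± 0.20, whose groups did not overlap.

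Fyb (chromosome 15, 6579872 to 6663313, mm10), an adaptor that links receptors to integrins in T cells and myeloid cells, measured 74.6 and 100.2 CPM in the wild type cultures against 81.4 and 95.3 CPM for KPC, and its log2 fold change was 0.02 ± 0.22 (SE; edgeR adjusted p = 0.993). Most of these counts lay in a processed pseudogene, if the Fyb row holds all reads of its interval. Gm7666, annotated as transcribed and processed, lies within the Fyb interval (chromosome 15, 6653924 to 6654741, mm10) and had a row of its own with 3543 and 2062 counts for the wild type pair and 4347 and 5601 for the KPC pair. These were 90.4%, 92.01%, 90.8% and 86.7% of the Fyb counts. The rest of the Fyb interval held 377, 179, 440 and 861 counts, or 7.17 and 8.01 CPM for the wild type pair beside 7.48 and 12.7 CPM for the KPC pair, so the groups still overlapped without Gm7666. The bases covered outside Gm7666 numbered 1291 and 990 for the wild type pair beside 2369 and 4092 for the KPC pair. An antisense gene, Gm2245 (chromosome 15, 6604342 to 6654303, mm10), also lies within the Fyb interval and overlaps Gm7666. Its row had 1362 and 677 counts for the wild type pair and 1812 and 2272 for the KPC pair. How the counts outside Gm7666 divide between Fyb and Gm2245 was not tested, so the level of Fyb itself is not settled.

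**Figure D3:**
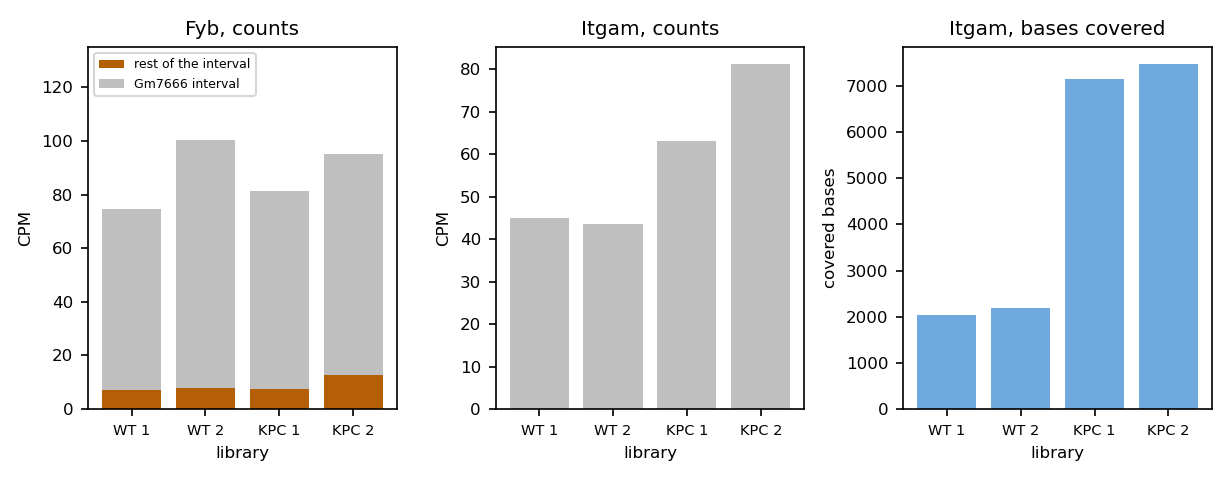
The left panel stacks the CPM of the Fyb interval in each library into the part inside Gm7666 and the rest; the middle and right panels show the CPM and the covered bases of Itgam. The Gm7666 part fills most of each Fyb bar, and the covered bases of Itgam go from 2033 in wild type 1 to 7466 in KPC 2 while its CPM goes from 44.99 to 81.2.

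Libraries of the same genotype differed along the same axis as the genotypes did. Wild type 2 was higher than wild type 1 in 36 of the 40 genes (48.4% of all tested rows), with a median ratio of 2.14 over the 40 genes and 0.987 over all tested rows. The widest wild type gaps were in Clec7a (ratio 40.4), Clec4n (39.1), Lyz2 (21.1) and Msr1 (15.8). By contrast Cd53, Aif1, Srgn and Dok2 had wild type ratios from 1.04 to 1.23 and were still higher in both KPC libraries. For Aif1 the exact 95% Poisson intervals of wild type 2 (0.512 to 1.33 CPM) and KPC 1 (1.14 to 1.77 CPM) overlapped. KPC 2 was higher than KPC 1 in 34 of the 40 (50.2% of all tested rows), with a median ratio of 1.77. The 6 genes that were higher in KPC 1 were Marco, Cd163, Clec7a, Gpnmb, Cybb and Mrc1, 4 of which are scavenger or lectin receptors. These are ratios of 1 library to 1 library and have no replicate check.

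**Figure D4:**
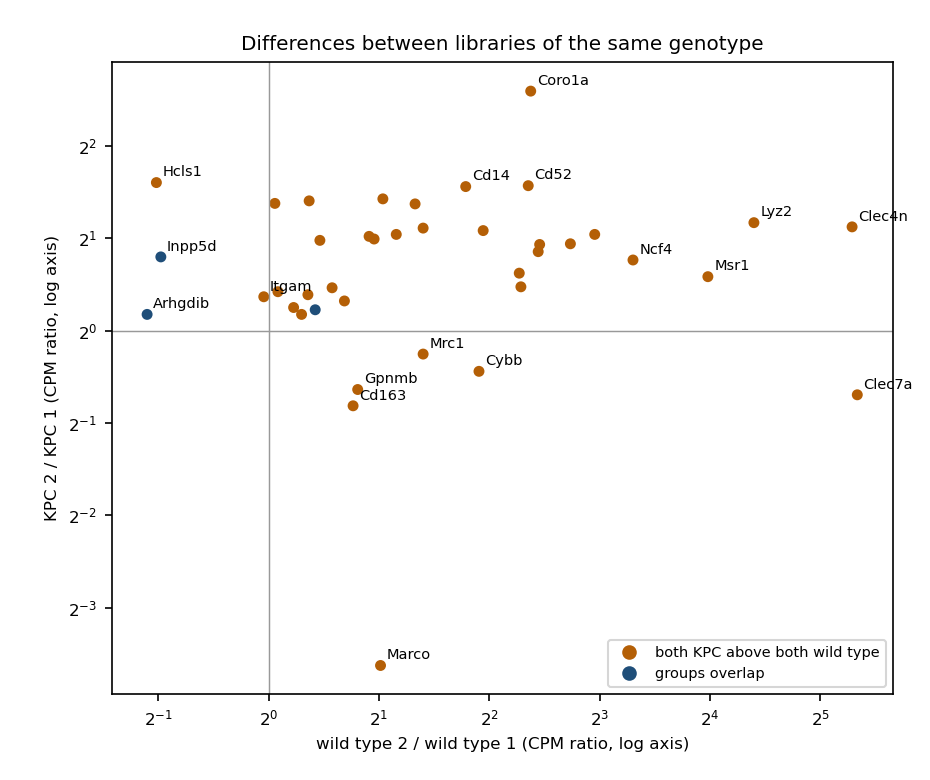
Each point is 1 of the 40 genes, with the CPM ratio of wild type 2 to wild type 1 on the x axis and of KPC 2 to KPC 1 on the y axis, both on log axes. Most points lie in the upper right part; Marco lies far below, at a KPC ratio of 0.081, and Arhgdib, Inpp5d, Hcls1 and Itgam lie left of a wild type ratio of 1.

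Other genes of blood cells were read from lists that hold none of the 40. These lists, too, were chosen with earlier results of these data known. Of 19 tested macrophage genes, 15 were higher in both KPC libraries and 1 was lower in both, with a median log2 fold change of 2.92. C1qa, a chain of complement C1q, stood at 0.780 and 18.7 CPM against 110 and 238 CPM, the protease gene Ctss at 28.6 and 44.6 against 130 and 214 CPM, and the chemokine gene Pf4 at 0.133 and 26.3 against 71.7 and 180 CPM. The row of the receptor gene Cx3cr1 had overlapping groups, at 39.1 and 48.0 against 52.7 and 45.9 CPM. Its reads covered between 10560 and 17141 bases of an interval of 166667 bases, and whether they come from Cx3cr1 alone was not tested. Mertk, a receptor for the uptake of dying cells, also had overlapping groups, at 8.43 and 4.92 against 5.56 and 6.86 CPM. Both genes were named after their values were seen. Of 19 tested signalling genes of blood cells, 17 were higher in both KPC libraries and 0 lower in both, with a median log2 fold change of 1.503. Plek, pleckstrin, stood at 2.30 and 6.22 against 18.7 and 26.6 CPM, the kinase gene Lyn at 11.9 and 13.3 against 17.7 and 20.3 CPM, and Runx1, a transcription factor of blood formation that stromal cells also use, at 14.8 and 24.7 against 56.6 and 43.7 CPM. None of the genes of either list passed the edgeR test (smallest adjusted p 0.211). At an unadjusted p under 0.05, 12 of the macrophage list and 14 of the signalling list were higher and 0 lower, and DESeq2 called 4 and 9 higher.

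Markers of lymphocytes and most granulocyte markers were low. The 12 T cell markers summed to 6.98 and 6.04 CPM for the wild type pair beside 5.36 and 5.69 CPM for the KPC pair, 0 of the 5 tested were higher in both KPC libraries, and Cd3d, Cd3e and Cd3g had at most 9 counts in any library. The 7 NK cell markers summed to between 1.16 and 1.68 CPM. The 9 B and plasma cell markers summed to 2.59 and 3.53 CPM for the wild type pair beside 2.86 and 6.16 CPM for the KPC pair, and 2 of the 4 tested were higher in both KPC libraries. Jchain, the joining chain of secreted antibodies, which was not among the tested rows, made up 2.34 CPM of the KPC 2 sum (159 counts) and was between 0.019 and 0.179 CPM in the other libraries. The B cell surface receptor gene Cd22 was the 1 marker of the T, NK and B cell lists with a higher value and an unadjusted edgeR p under 0.05, at 0.266 and 0.313 against 0.952 and 1.34 CPM. The T cell receptor gene Trac was the 1 marker with a lower value at that threshold, at 2.59 and 1.66 against 0.765 and 1.03 CPM; Jchain was named after its values were seen. The 10 neutrophil markers summed to 2.44 and 5.05 CPM for wild type 1 and 2, 51.2 CPM for KPC 1 and 5.51 CPM for KPC 2. Of 7 tested neutrophil markers, 2 were higher in both KPC libraries and 0 lower in both, and DESeq2 called 1 higher. Nearly all of the KPC 1 sum was S100a8, at 48.1 CPM on 2830 counts, while its usual partner S100a9 had 13 counts there. S100a8 had an unadjusted edgeR p of 0.0248 and an adjusted p of 0.536, with 45 counts in KPC 2. Ly6g and Retnlg were at 0 counts in KPC 1. The mast cell sum of 179 to 224 CPM came almost wholly from Cpa3, whose 4046 to 13853 counts covered at most 781 of the 26564 bases of its interval.

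Dendritic cell and osteoclast markers were mixed. Of 5 tested dendritic cell markers, 2 were higher in both KPC libraries and 2 lower in both. Itgax, the integrin chain CD11c, which macrophages also carry, stood at 0.514 and 1.25 CPM against 8.87 and 5.72 CPM, and the transcription factor gene Irf8 at 0.989 and 1.74 against 4.06 and 8.21 CPM. Zbtb46, known from conventional dendritic cells, stood at 3.25 and 4.52 against 2.92 and 3.27 CPM. The markers lower in both KPC libraries were Flt3, at 2.87 and 2.64 against 1.87 and 2.12 CPM, and Xcr1, at 0.628 and 1.12 against 0.204 and 0.428 CPM. Flt3 and Xcr1 were named after their values were seen. Of 8 osteoclast and giant cell markers, 5 were higher in both KPC libraries and 1 lower in both. The acid phosphatase gene Acp5 stood at 1.60 and 5.32 CPM against 41.0 and 21.8 CPM, the collagenase gene Ctsk at 43.6 and 39.2 against 50.2 and 44.8 CPM, and the gelatinase gene Mmp9 at 0.266 and 29.6 against 47.1 and 25.8 CPM. None of either list passed the edgeR test (smallest adjusted p 0.289). At an unadjusted p under 0.05, 2 dendritic cell and 3 osteoclast markers were higher and 0 lower, and DESeq2 called 2 higher in each list.

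**Figure D5:**
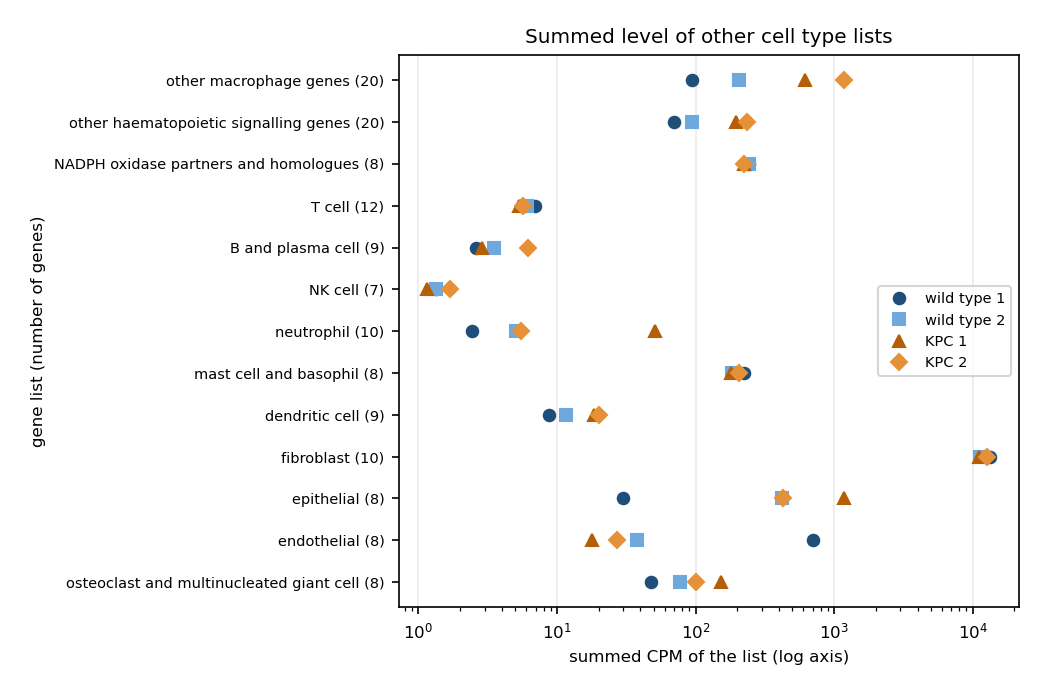
Summed CPM of each of 13 other gene lists in each library, on a log axis, with the number of genes in brackets. The macrophage and haematopoietic signalling lists put wild type 1 lowest and KPC 2 highest; the fibroblast list is nearly level, the endothelial list is high in wild type 1 and the epithelial list is lowest there.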

How the data were processed

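Poly-A RNA was sequenced as single reads of 50 bases after 13 cycles of PCR, per the labels' protocols. Tools listed without roles in the submitters' processing notes are TopHat2 2.0.3, SAMtools 0.1.18, FastQC 0.10.1 and bedtools, with the mm10/GRCm38 build. The authors deposited, for each library, a table with no header that gives for 38921 gene intervals a position, a symbol, a count, the covered bases, the interval length and the covered fraction. The deposited counts were taken as raw reads over the whole interval, from their values; strand and the handling of reads with several matches are not given in the sources used here. The deposited covered bases and the covered fraction served to describe how counts were spread.

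Counts were fitted with edgeR 4.0.16 in R 4.3.3: filterByExpr (minimum count 10), TMM factors (0.988 to 1.02) and a two-sided quasi-likelihood test between the genotypes, with Benjamini-Hochberg adjustment over 23046 rows. Each standard error divides the size of the unshrunk log2 fold change by the square root of F. An exact permutation test of 2 libraries against 2 cannot reach 0.05. Depth ran from 22302141 to 68312367 counts; the limit of 3 counts is between 0.0439 CPM (KPC 2) and 0.135 CPM (wild type 2). Intervals of single libraries are exact Poisson intervals at 95%. Exon lengths and nested genes came from GENCODE M21, promoters from RefSeq (GRCm38.p6). All 40 genes are named; names from further lists come from the 3 tested genes with the most counts in each, except 1 that is not reported here; others are defining markers or were named after their values were seen. The members and lists were chosen with earlier results of these data known. 2 list symbols, Adgre1 and Jchain, were matched through older names. Alternatives used DESeq2 1.42.0, limma 3.58.1 (voom), other factors and filters, a block for the replicate number, and omission of each library. Scripts were tested on simulated data.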

Additional observations from a re-analysis of the deposited data

How the results depend on the processing

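The 37 genes higher in both KPC libraries and the median log2 fold change of 2.50 kept their direction with RLE or upper quartile factors, without composition factors, with other filters on counts, DESeq2, limma voom and a replicate block, with 34 to 37 genes and medians from 2.45 to 2.60; with at least 1 CPM in 2 libraries, 37 genes were tested. Without each library in turn the median ran from 1.94 to 3.48, the count of non-overlapping genes from 37 to 39, the count at an unadjusted p under 0.05 from 13 to 34, and the genes with overlapping groups from 1 to 3. edgeR called 0 to 17 of the 40, and over all rows 0 to 429 higher and 0 to 406 lower; the 17 and both highest counts are those without wild type replicate 2. DESeq2 called 333 rows higher, 294 lower and 23 of the 40 genes. The cause of these differences was not tested. Fyb turned to -0.048 with upper quartile factors, -0.18 without wild type replicate 1 and -0.11 without KPC replicate 2; Inpp5d to -0.004 without wild type replicate 2 and -0.064 without KPC replicate 2; and Arhgdib to -0.27 without wild type replicate 2. With single libraries left out, Fyb ran up to 0.247, Inpp5d up to 0.973 and Arhgdib up to 0.83. Groups separate more easily when 1 library is left out. Over all tested rows, 31.6% to 38.6% were then higher in KPC without overlap, against 20.6% in the main fit. The 37 to 39 non-overlapping genes of these fits are thus not comparable with the 37 of the main fit. With the replicate block the median was 2.49, 37 genes did not overlap, and 0 were called. At an unadjusted edgeR p under 0.05, 35 were higher in KPC, against 5.12% of all tested rows. Same-numbered libraries deviated together only weakly (r = 0.136 across genes), and the labels do not say that numbers pair libraries. Low counts limit Ncf4, Marco and Il7r, which had under 10 counts in at least 1 wild type library. Among the 37 genes, exact 95% Poisson intervals of a wild type and a KPC library overlapped for Aif1, Was, Cd48, Cd163, Hcls1 and Coro1a.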
